A study of Saccharomyces cerevisiae with 4 samples.

Results

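Nitrogen catabolite repression is the system by which budding yeast keeps genes for poor nitrogen sources off while a good source is at hand. It is described here by the messenger RNA of 8 genes, taken by name from a table of 5897 genes: the GATA factors GLN3, GAT1, DAL80 and GZF3, the Gln3 inhibitor URE2, and the ammonium transporters MEP1, MEP2 and MEP3. All 8 were found. The data are from the industrial Saccharomyces cerevisiae strain CY, grown with shaking for 10 h in rich medium of glucose, peptone and yeast extract. Of the 4 libraries, 2 were labelled non-stress (30 °C, 2% glucose) and 2 stress (36 °C, 10% glucose). Yeast extract and peptone, the nitrogen supply, were the same in both groups by the labels. Temperature and glucose changed together and their effects cannot be told apart. The labels do not say whether the replicates are separate cultures, so p-values cover only the differences between these samples, and those may be technical.

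As background, Gln3 and Gat1 activate transcription by binding GATA sequences upstream of nitrogen genes, and they are held in the cytoplasm when preferred nitrogen sources are plentiful. Ure2 binds Gln3 there. Dal80 and Gzf3 bind the same sequences and repress, and the GAT1, DAL80 and GZF3 genes are themselves targets of the family. Mep2 has the highest affinity for ammonium and is also needed for the filamentous growth that follows ammonium limitation, while Mep3 has the lowest affinity and a high capacity.

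Values are FPKM, fragments counted for a gene relative to transcript length and to all mapped fragments of that library. Depth, estimated from the steps between low values, was 18000000 to 18800000 fragments per library. Of 5784 genes tested with limma, 5071 (87.7%) passed a Benjamini-Hochberg adjusted p threshold of 0.05, and the 2 groups did not overlap for 93.8% of genes. A call alone therefore says little in this comparison, and sizes of change are given with their place among all genes. Genes that glucose represses were far higher in the libraries labelled 10% glucose: FBP1 (fructose-1,6-bisphosphatase) was at 10.4 FPKM in each non-stress library and at 3920 and 3814 in the stress libraries, and SUC2 (invertase) at 244 and 237 against 10023 and 9975. The glucose left at harvest is not known here. The heat and stress genes HSP12 and HSP26 were 80.7-fold and 10.7-fold higher in the stress libraries. The 137 cytosolic ribosomal protein genes held 22.5% and 23.7% of the FPKM sum in non-stress libraries and 1.54% and 1.57% in stress libraries, so the scale of all other genes depends on how this is treated.

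The stretch of DNA from 400 to 101 bases before the start codon is shown for 4 of the 8 genes, because the GATA factors act through such sequences and they are the 2 with the largest falls, an activator gene and the transporter gene that went the other way. It was read from the R64 reference genome, not from strain CY. Each line runs 5′ to 3′ toward the gene, and capitals mark matches to GATAA and to its longer form GATAAG on either strand, the reverse strand reading as TTATC and CTTATC.
MEP2, plus strand, chrXIV:357053-357352: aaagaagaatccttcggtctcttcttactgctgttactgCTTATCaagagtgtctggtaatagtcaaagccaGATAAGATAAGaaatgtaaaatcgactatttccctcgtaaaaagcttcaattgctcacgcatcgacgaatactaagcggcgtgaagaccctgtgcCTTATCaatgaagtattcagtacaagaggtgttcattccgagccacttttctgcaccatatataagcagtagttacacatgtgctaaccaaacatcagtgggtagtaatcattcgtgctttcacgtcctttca
DAL80, plus strand, chrXI:506498-506797: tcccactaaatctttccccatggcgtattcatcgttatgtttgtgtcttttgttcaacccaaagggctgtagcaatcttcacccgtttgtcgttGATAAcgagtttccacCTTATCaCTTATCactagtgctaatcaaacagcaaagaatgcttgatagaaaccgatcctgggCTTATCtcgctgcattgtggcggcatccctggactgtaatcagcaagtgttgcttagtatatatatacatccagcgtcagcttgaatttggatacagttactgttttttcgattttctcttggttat
GAT1, plus strand, chrVI:95566-95865: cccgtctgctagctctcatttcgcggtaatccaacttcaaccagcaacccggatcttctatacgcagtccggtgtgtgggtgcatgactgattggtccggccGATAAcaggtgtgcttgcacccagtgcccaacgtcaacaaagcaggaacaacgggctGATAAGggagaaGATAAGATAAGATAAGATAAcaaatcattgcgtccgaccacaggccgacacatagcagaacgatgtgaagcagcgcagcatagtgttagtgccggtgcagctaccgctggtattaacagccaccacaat
MEP3, minus strand, chrXVI:812554-812853: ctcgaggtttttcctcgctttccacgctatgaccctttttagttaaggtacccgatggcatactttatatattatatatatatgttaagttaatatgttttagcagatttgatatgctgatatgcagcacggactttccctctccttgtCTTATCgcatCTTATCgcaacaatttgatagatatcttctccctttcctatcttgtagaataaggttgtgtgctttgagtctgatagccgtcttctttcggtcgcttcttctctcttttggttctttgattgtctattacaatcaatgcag

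In these windows the 6-letter GATAAG was found 4 times for MEP2, 3 times for DAL80, 4 times for GAT1 and 2 times for MEP3. In MEP2 a pair of the matches overlaps by their shared G, and in GAT1 a run of 3 does. Among the other 4 genes, GZF3 had 3 matches, MEP1 had 2, GLN3 had 1 and URE2 had 0. Of 5893 windows of this length, one before each gene that could be placed, 13.9% held at least 1 GATAAG and 1.5% at least 2; GATAA, which lies inside it, was in 59.8%. Thus 7 of the 8 genes held the motif and 6 held it at least 2 times. The MEP2 window lies 44.7% within another annotated gene, YNL143C, the DAL80 window 93.7% within YKR032W and the GLN3 window 29.0% within YER039C-A. A match is a description of the letters, not proof of a bound site.

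**Figure D1:**
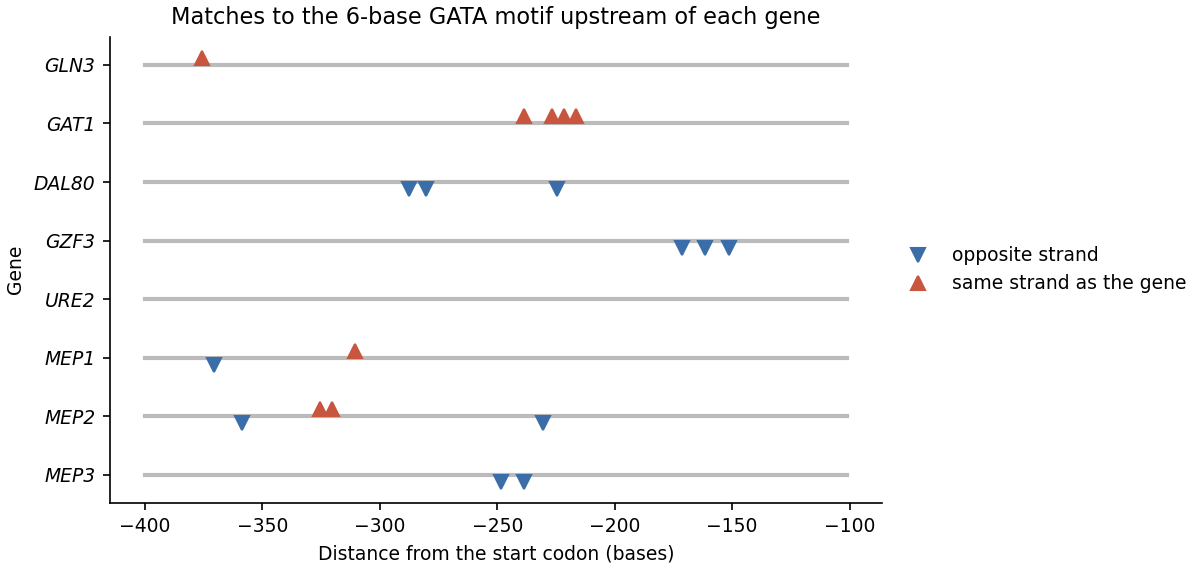
Matches to the 6-letter GATA motif between 400 and 101 bases before the start codon of each gene (x axis, bases; y axis, gene), upward triangles for the strand of the gene and downward triangles for the opposite strand. The matches of GAT1, GZF3 and MEP3 stand close together, those of MEP2, MEP1 and DAL80 are spread wider, and URE2 has 0.

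Across the genome, genes with and without the motif were called in both directions. Of 84 tested genes with at least 2 GATAAG, 34.5% were higher and 51.2% lower in the stress libraries. Of 4974 tested genes with 0, the shares were 39.9% and 48.1%. The median log2 fold changes were -0.19 and -0.14.

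Of the 8 genes, 6 fell in the libraries labelled stress, 1 (MEP3) rose, though not with ribosomal protein genes left out of the sum, and 1 (URE2) did not pass the test, where 47.9% of all tested genes fell and 39.8% rose. All 8 passed the filter on low values, DAL80 by way of its non-stress libraries and 1 stress library. The stress libraries of DAL80 alone would not have met it. The call on DAL80, counted among the 6, therefore carries little weight beside its FPKM values. A log2 fold change of at least 2 in size was found for 2 of the 8, MEP2 and DAL80, as for 21.1% of all tested genes. In bulk RNA, fewer cells with a transcript and less of it per cell cannot be told apart. The median log2 fold change of the 8 was -0.69, against -0.14 over all genes tested. The 2 groups did not overlap for any of the 8, as for 93.8% of all tested genes. Changes were largest for the high-affinity transporter MEP2 and the repressor DAL80, intermediate for MEP1 and the activator GAT1, and small for GZF3, MEP3, GLN3 and URE2. Every member is a single coding exon, overlaps no other annotated gene and shares 0 of its 50-base windows with another coding sequence, by the R64 reference.

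**Figure D2:**
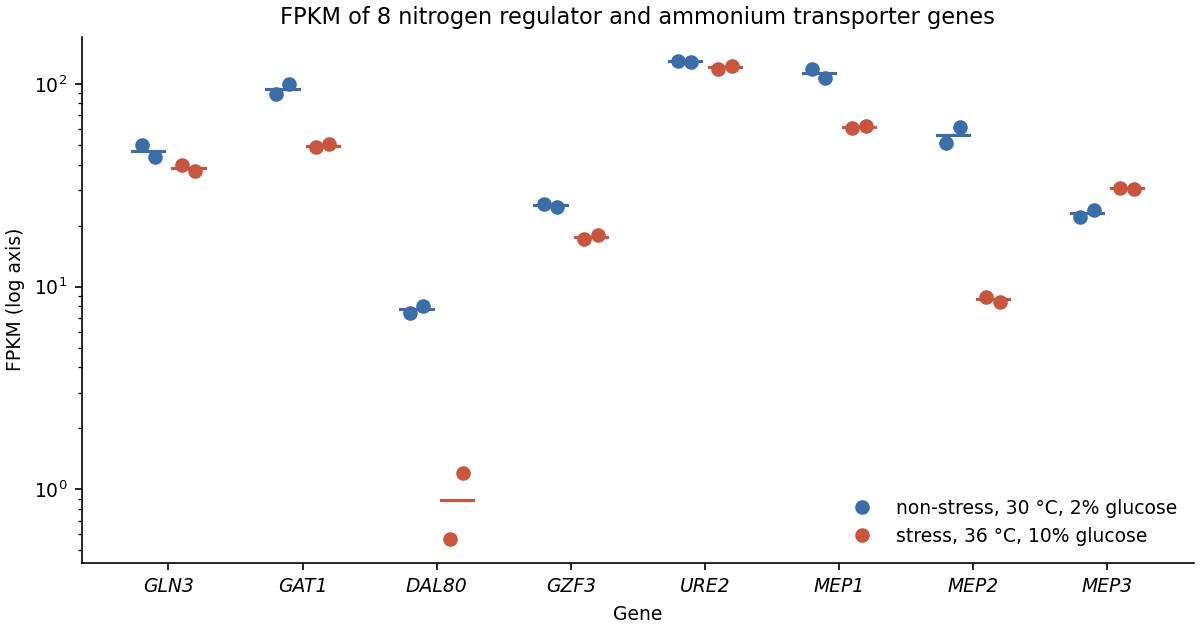
FPKM (log axis) of each gene in each library, blue for the 2 non-stress and red for the 2 stress libraries, with a bar at the mean. MEP2 and DAL80 stand furthest apart between groups, and MEP3 alone lies higher in the stress libraries.

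The activators differed in how far they moved. GAT1 (chromosome VI, 95966 to 97498, plus strand) was at 89.3 and 99.98 FPKM in non-stress and at 48.53 and 50.39 in stress libraries. It fell 1.91-fold, and on the log2(FPKM + 1) scale, used for all log2 fold changes, the difference was -0.92 ± 0.069 (SE, n = 2 per group; limma adjusted p = 1.22e-06). GLN3 (chromosome V, 229795 to 231987, plus strand) was at 49.9 and 43.78 FPKM in non-stress and at 39.76 and 37.11 in stress libraries. Its log2 fold change was -0.28 ± 0.08 (SE), with a limma adjusted p of 0.00969, and 17.6% of all genes changed by less. The call on GLN3 was lost without stress replicate 2 (log2 fold change -0.23, limma adjusted p = 0.071), after quantile normalization (-0.06) and after median centring (-0.09). The ratio of GAT1 to GLN3 FPKM, which does not depend on the scale of a library, was 1.79 and 2.28 in non-stress and 1.22 and 1.36 in stress libraries. The ratios did not overlap, and the exact two-sided permutation p of 0.333 is the smallest that 2 against 2 libraries allow.

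The repressors both fell. DAL80 (chromosome XI, 506898 to 507707, plus strand) was the least abundant of the 8, at 7.45 and 7.98 FPKM in non-stress and 0.57 and 1.21 FPKM in stress libraries. By the depth estimate these values stand for about 108 and 116 fragments and for about 8 and 17 fragments. The stress libraries differed from each other by more than a factor of 2, and both lay far below the non-stress libraries. The mean fell 8.67-fold, or -2.23 ± 0.2 on the log2 scale (SE; limma adjusted p = 4.68e-06), which the pseudocount of 1 understates: with 0.1 it was -3.06. GZF3 (chromosome X, 209922 to 211577, minus strand) was at 25.56 and 24.83 FPKM in non-stress and at 17.09 and 17.95 in stress libraries. Its log2 fold change was -0.5 ± 0.079 (SE; limma adjusted p = 0.000255), and quantile normalization ended the call (-0.08, limma adjusted p = 0.247). Taking both repressors against both activators, summed FPKM of DAL80 and GZF3 over that of GLN3 and GAT1 was 0.237 and 0.228 in non-stress and 0.2 and 0.219 in stress libraries. The groups did not overlap, and the means differed by -0.0232 (exact two-sided permutation p = 0.333, the smallest possible).

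URE2 (chromosome XIV, 219137 to 220201, minus strand), the Gln3 inhibitor and the source of a well known yeast prion, was the most abundant of the 8 in both groups. It was at 130.04 and 128.04 FPKM in non-stress and at 118.59 and 122.13 in stress libraries. Its difference of -0.1 ± 0.052 on the log2 scale (SE; limma adjusted p = 0.0984) did not pass. Its sign depends on scaling: it was 0.09 after median centring, and it passed as lower after rescaling to equal FPKM sums (-0.19) and with ribosomal protein genes left out of the sum (-0.54). Against the median of all genes under each of the settings tried, URE2 stood between -0.19 and 0.06.

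The 3 ammonium transporters did not move together. MEP2 (chromosome XIV, 357453 to 358952, plus strand) was at 51.25 and 60.98 FPKM in non-stress and at 8.85 and 8.43 FPKM in stress libraries. It fell 6.49-fold, or -2.56 ± 0.097 on the log2 scale (SE; limma adjusted p = 7.77e-09), and 86.8% of all genes changed by less. MEP1 (chromosome VII, 731449 to 732927, minus strand), the most abundant transporter in both groups, was at 118.2 and 107.18 FPKM in non-stress and at 60.24 and 61.82 in stress libraries. It fell 1.85-fold, or -0.87 ± 0.064 on the log2 scale (SE; limma adjusted p = 1.03e-06).

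MEP3 (chromosome XVI, 810984 to 812453, minus strand) went the other way. It was at 22.07 and 23.97 FPKM in non-stress and at 30.73 and 30.41 in stress libraries, a 1.33-fold rise, or 0.4 ± 0.077 on the log2 scale (SE; limma adjusted p = 0.000949). This rise rests on the scale of the libraries: with ribosomal protein genes left out of the sum it was -0.03 (limma adjusted p = 0.712). That scaling moves the median of all genes from -0.14 to -0.53. Against the median, MEP3 stood higher by 0.44 to 0.66 under every scaling, filter and left-out library tried, MEP1 at -0.89 to -0.7 and MEP2 at -2.59 to -2.27. MEP1 and MEP3 are the closest pair by coding sequence, with 69.6% identical bases, against 52.0% for MEP1 and MEP2 and 53.3% for MEP2 and MEP3.

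The split of transporter messenger RNA changed between MEP2 and MEP3. It is a share within each library, which multiplying a whole library by a single factor cannot alter, though quantile normalization can. The summed FPKM of the 3 genes was 191.5 and 192.1 in non-stress and 99.82 and 100.7 in stress libraries. MEP2 held 26.8% and 31.7% of it in non-stress and 8.87% and 8.38% in stress libraries. MEP3 held 11.5% and 12.5%, then 30.8% and 30.2%. For both, the groups did not overlap, with an exact two-sided permutation p of 0.333, the smallest possible. The share of MEP1 was 58.75% ± 4.2 and 60.88% ± 0.75 (SD, n = 2), and its groups overlapped (exact permutation p = 1.0).

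**Figure D3:**
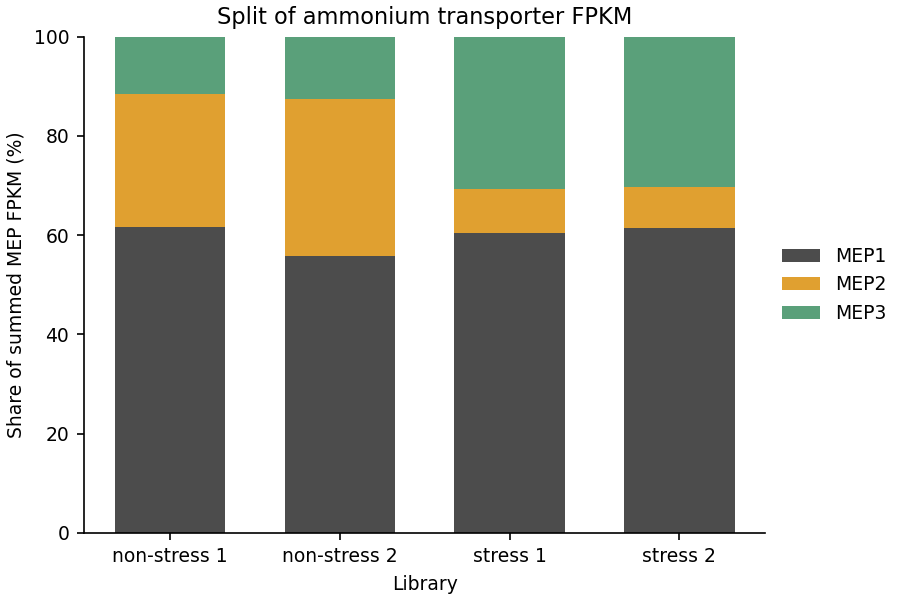
Share of the summed MEP1, MEP2 and MEP3 FPKM (y axis, %) held by each gene in each of the 4 libraries (x axis). The MEP1 part is of like size in all libraries, while the MEP2 part is smaller and the MEP3 part larger in both stress libraries.

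The order of levels changed accordingly. In non-stress libraries it ran URE2, MEP1, GAT1, MEP2, GLN3, GZF3, MEP3, DAL80, and in stress libraries URE2, MEP1, GAT1, GLN3, MEP3, GZF3, MEP2, DAL80. In both groups each gene lay above the next in all libraries, but MEP2 and GLN3 (51.25 and 49.9 FPKM at their closest) and GZF3 and MEP3 (24.83 and 23.97) were near each other in non-stress libraries. MEP2 went from the fourth place to the seventh. Among all tested genes, 50.8% had a lower mean FPKM than MEP2 in non-stress libraries and 10.8% in stress libraries.

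**Figure D4:**
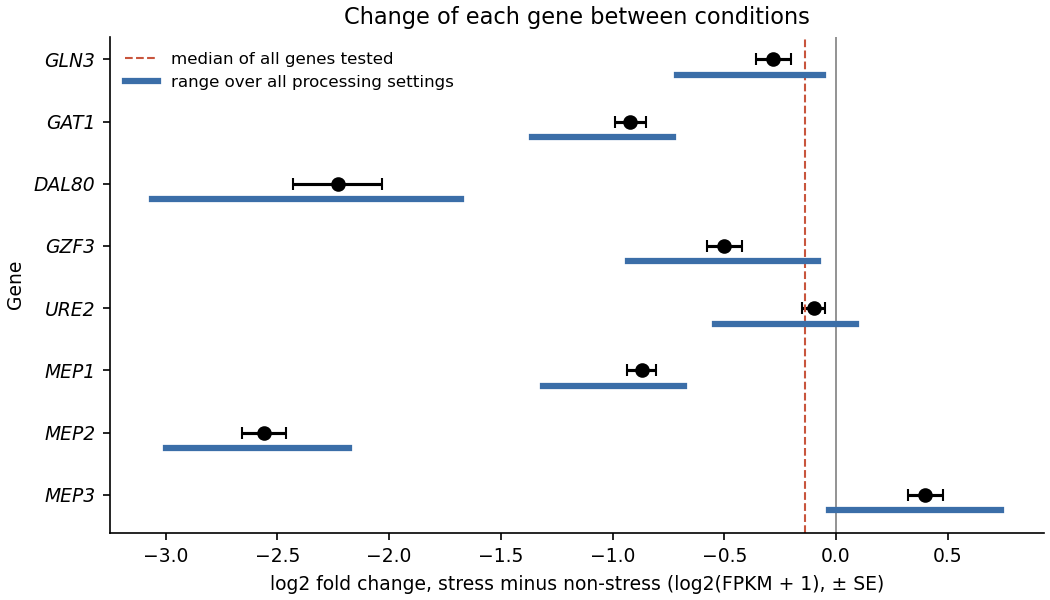
Log2 fold change of each gene (x axis, stress minus non-stress on log2(FPKM + 1); points with SE, 2 libraries a group), with the range over all processing settings tried as a blue bar and the median of all genes as a dashed line. The bars of GAT1, DAL80, MEP1 and MEP2 lie wholly below 0, those of URE2 and MEP3 cross 0, and those of GLN3 and GZF3 end just below it.

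The genes closest to MEP2 in their course over the 4 libraries, by distance between centred log2(FPKM + 1) values among genes with a mean FPKM of at least 20, were RPL4A (0.074), TAH18 (0.1) and ICT1 (0.104). For DAL80 they were SER2 (0.061), PAC10 (0.083) and FCF2 (0.108). With 2 groups, this distance mostly reads the size of the group difference.

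Genes that the GATA factors are known to control were called in both directions. Of all tested genes 47.9% were lower, 39.8% higher and 87.7% called in either direction. Counts of called genes in lists this short say little beside these shares, and no list was tested against them. In the allantoin and urea degradation list 4 of 5 enzyme genes fell and 1 rose; their median log2 fold change was -2.37, against -0.14 for all genes. DUR1,2, the urea amidolyase, was at 128.57 and 124.49 FPKM in non-stress and 8.92 and 8.44 in stress libraries, a 14.6-fold fall (log2 fold change -3.72 ± 0.069, SE). DAL7 (malate synthase of allantoin use), DAL3 (ureidoglycolate lyase) and DAL1 (allantoinase) fell 10.6-fold, 6.39-fold and 2.89-fold. DAL2, allantoicase, went from 19.99 and 19.98 FPKM to 95.1 and 92.56, a 4.7-fold rise. DAL1, DAL2, DAL7 and DAL3 lie within the same stretch of chromosome IX, from 406260 to 415617, together with the permease gene DAL4. Each of the 5 enzyme genes had at least 1 GATAAG in its upstream window, DAL2 with 2 and DAL1 with 2. In the 2 lists that follow, 3 of 3 permease genes and 5 of 12 other known targets held it, beside 13.9% of all windows.

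Of 3 permease genes for these compounds 2 rose and 1 did not pass, where 39.8% of all tested genes rose and 47.9% fell. The difference from the enzymes was not tested. DAL5, which imports allantoate and dipeptides, rose 2.17-fold (11.87 and 11.47 to 25.16 and 25.6 FPKM). DUR3, which imports urea, rose 1.68-fold from 6.41 and 7.32 to 11.15 and 11.91 FPKM. DAL4, which imports allantoin, did not pass: it was at 9.26 and 8.47 FPKM in non-stress and 9.16 and 9.76 in stress libraries, and it gained a call in either direction with scaling: higher after quantile normalization (0.66) and median centring (0.27), lower with ribosomal protein genes left out (-0.32).

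Of 12 other known targets of nitrogen catabolite repression 7 rose and 5 fell, where 39.8% and 47.9% of all genes did; the median log2 fold change was 0.64. PUT4, the proline permease, went from 1.1 and 1.15 FPKM to 71.48 and 71.83, a 63.7-fold rise (log2 fold change 5.1 ± 0.096, SE; limma adjusted p = 7.56e-11). The pseudocount of 1 is as large as its non-stress values and understates the log2 value, which was 5.87 with 0.1. GAP1, the general amino acid permease, rose 3.07-fold, from 7.58 and 8.97 to 26.44 and 24.29 FPKM. VID30, CPS1 (carboxypeptidase), UGA1 (GABA transaminase), PUT1 (proline oxidase) and GDH2 also rose, 2.7-fold to 1.54-fold. CAR1, arginase, fell 7.66-fold, and AGP1, an amino acid permease, and GLN1, glutamine synthetase, fell 2.49-fold and 2.45-fold. UGA4 (GABA permease) fell 1.66-fold, a call that quantile normalization ended, and OPT2 fell 1.14-fold, with a sign that turned after median centring (0.01).

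Ammonium assimilation showed a contrast between isozymes. GDH1, the NADP-dependent glutamate dehydrogenase of growth on glucose, was at 269.78 and 290.38 FPKM in non-stress and 18.3 and 19.18 in stress libraries. Its copy GDH3 went from 19.03 and 20.32 to 588.45 and 583.29 FPKM, so that its share of their summed FPKM was 6.59% and 6.54% in non-stress and 97.0% and 96.8% in stress libraries. GLT1, glutamate synthase, fell 1.66-fold. Of the 5 genes of the list 2 rose and 3 fell, where 39.8% and 47.9% of all tested genes did.

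**Figure D5:**
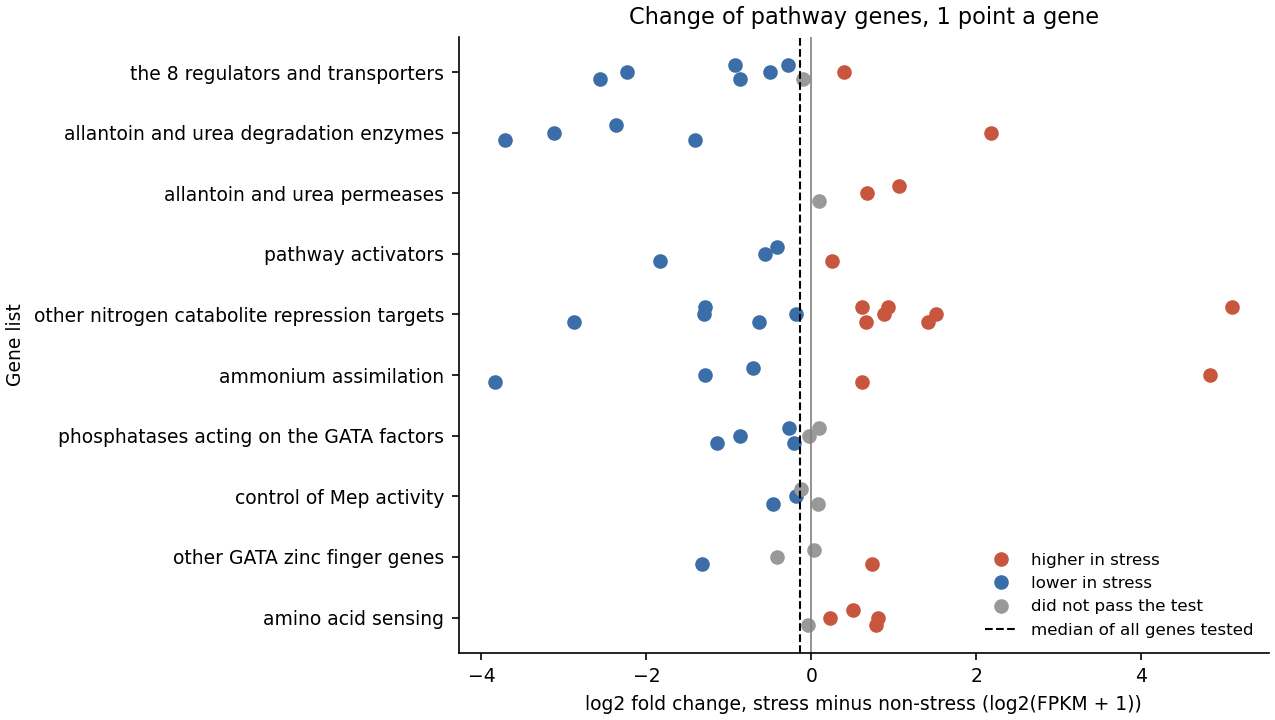
Log2 fold change (x axis, stress minus non-stress on log2(FPKM + 1)) of each tested gene in the lists (y axis), red where it passed as higher, blue as lower and grey where it did not pass; GAT4, listed at 0 in both stress libraries, is left out. Enzymes of allantoin and urea use lie mostly left of the dashed median of all genes, their permeases lie right of it, and the other targets lie on both sides.

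Of 4 pathway activators, which act beside the GATA factors, 3 fell and 1 rose, beside 47.9% and 39.8% of all genes. With ribosomal protein genes left out of the sum all 4 were lower, and with equal sums 3 were lower and 0 higher. PUT3, the activator of proline genes, fell 3.98-fold (25.6 and 24.86 to 6.68 and 5.99 FPKM) whereas its target PUT1 and the permease gene PUT4 were higher. DAL81 and UGA3 fell 1.35-fold and 1.48-fold, DAL81 not passing after quantile normalization. DAL82, the activator of allantoin genes, was 1.19-fold higher, but its sign turned (-0.19) with ribosomal protein genes left out of the sum.

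Among genes for the phosphatases that act on Gln3 and Gat1, their regulatory partners and regulators of Mep proteins, the largest change was a 2.31-fold fall, of PPH3. The 6 genes for these phosphatases and their regulatory partners had a median log2 fold change of -0.24. Of them 4 fell, 0 rose and 2 did not pass, beside 47.9% of all genes lower and 39.8% higher. These counts rest on scaling: after median centring 2 were higher (TIP41, 0.16, and PPH21, 0.28) and 2 lower, and with ribosomal protein genes left out of the sum all 6 were lower. TAP42, a regulatory partner of these phosphatases, fell 1.84-fold. PPH21 and PPH22 share 15.2% and 14.8% of their 50-base windows with each other, which makes their split less certain. NPR1, the kinase needed for Mep2 activity, fell 1.39-fold (51.69 and 49.87 to 36.22 and 37.08 FPKM). PAR32, an inhibitor of Mep1 and Mep3, was at 202.31 and 215.5 FPKM in non-stress and 182.28 and 183.33 in stress libraries, a log2 fold change of -0.19 that came to 0.00 after median centring. PSR1 (-0.13) and PSR2 (0.08), phosphatases acting on Mep2, did not pass.

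Other genes with GATA-type zinc fingers were not a group with a shared direction. GAT2 rose 1.66-fold. ECM23 was at 3.03 and 2.82 FPKM in non-stress and 0.63 and 0.52 in stress libraries; it met the filter on low values only through the non-stress group, as did GAT4, so their calls carry no weight. GAT4 was at 1.62 and 4.36 FPKM in non-stress libraries and listed at 0 in both stress libraries. SRD1 and ASH1, a repressor of mating type switching, did not pass, and GAT3 stayed under the level tested. In the sensor system for outside amino acids STP1, SSY5 and PTR3 rose 1.76-fold, 1.76-fold and 1.43-fold, PTR3 not passing with ribosomal protein genes left out. STP2 was 1.18-fold higher with a sign that turned under that scaling (-0.2), and the sensor gene SSY1 did not pass (-0.04), though it passed as higher after quantile normalization (0.33) and as lower with ribosomal protein genes left out (-0.47).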

How the data were processed

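Polyadenylated RNA of 4 libraries, 2 non-stress and 2 stress, was sequenced as DNA nanoballs, per the labels' protocols. The authors deposited FPKM values per gene and library, rounded to 2 decimals, per the file headers. Per the submitters' processing notes, build R64 was used with RSEM 1.2.8, Bowtie2 2.2.5 and HISAT2 2.1.0, in roles not given in the sources used here. The deposited table also gives transcript lengths, of which 98.8% are multiples of 3 and hence coding lengths.

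A gene was tested where 2 or more libraries reached an FPKM of 1 (5784 genes; 113 removed). Stress was compared with non-stress by limma 3.58.1 in R 4.3.3 with a trend on log2(FPKM + 1), two-sided, with Benjamini-Hochberg adjustment over all genes; residual and prior degrees of freedom were 2 and 6.51. The fit was tested on simulated data in which few genes changed and no library changed in scale. That does not cover a comparison in which most genes were called, as here. Shares and ratios were compared by exact permutation. Depth was estimated by asking which number of fragments makes low values whole reads: 81.8% to 87.7% of 46 to 66 values came within 0.1 of whole. Chance gives 20% for a fixed setting. The best of many settings was taken, so 20% is not the chance level of these shares.

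All 8 genes, the lists and the tests were chosen with earlier results of these data known. Named genes were the 8, any gene of the lists, the 3 genes nearest in profile to each of the 2 that changed most, and FBP1, SUC2, HSP12 and HSP26. Identifiers of 5894 genes matched R64 and 5814 had identical coordinates. Coordinates are 1-based. Upstream windows, the shared 50-base windows and identities were computed with Biopython 1.88. Alternatives were other scalings, a pseudocount of 0.1, no filter, a minimum FPKM of 5, a replicate block, each library left out and a threshold of 0.01.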

Additional observations from a re-analysis of the deposited data

How the results depend on the processing

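GAT1, DAL80, MEP1 and MEP2 kept their direction and their call under all 13 alternatives. For DAL80 this carries no weight with a minimum FPKM of 5 or without stress replicate 2. There it met the filter only through its non-stress libraries. GLN3 kept both under 10, GZF3 and MEP3 under 12 and URE2 under 10. The count of the 8 that passed was 7, where 87.7% of all tested genes passed. It ran from 5 after quantile normalization to 8 after rescaling to equal sums. Of 5071 genes called, 45.4% were higher; this was 31.8% with ribosomal protein genes left out of the sum, where 1608 were higher and 3443 lower. With the replicate number as a block 5073 genes and 7 of the 8 passed; SRD1 newly passed (-0.42, adjusted p = 0.0484) and no other list gene or member changed its call. Same-numbered libraries did not deviate together (r = -0.005 over genes), so the numbers are not taken as pairs.

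Signs turned after median centring for URE2 (0.09), OPT2 (0.01), TIP41 (0.16), PSR1 (0.06) and SSY1 (0.15), and after quantile normalization for PPH21 (-0.04), PSR1 (0.14), SRD1 (0.05) and SSY1 (0.33). With equal sums they turned for PSR2 (-0.01) and ASH1 (-0.06). With ribosomal protein genes left out they turned for MEP3 (-0.03), DAL4 (-0.32), DAL82 (-0.19), PPH21 (-0.35), PSR2 (-0.36), ASH1 (-0.41) and STP2 (-0.20). With each library left out, TIP41 ran from -0.09 to 0.03, ASH1 from -0.05 to 0.10 and SSY1 from -0.11 to 0.03, and all 3 turned sign. The causes were not tested, beyond the shift each scaling applies to all genes. Genes passing in the list on control of Mep activity were 2 of 4, or 4 with ribosomal protein genes left out. Of the other GATA zinc finger genes 3 of 5 tested passed, but GAT4 and ECM23 met the filter only through the non-stress group. Their count was 5 with ribosomal protein genes left out and 1 with a minimum FPKM of 5. Leaving out a library also moved these counts: non-stress replicate 1 for control of Mep activity, and non-stress replicate 2 for the zinc finger genes. Before any change of settings 87.7% of all tested genes passed. The MEP2 share differed by -23.1 to -18.1 percentage points with each library left out, and the repressor to activator ratio by -0.0327 to -0.0137. The smallest difference of that ratio, without stress replicate 1, was about the size of its SD in stress libraries (0.013). Low levels limit DAL80, whose stress values stand for about 8 and 17 fragments.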
